A study of Homo sapiens with 11 samples.

Results

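Expression was examined for 10 genes of the eIF2 system among the 28152 gene symbols of the deposited tables: the eIF2 subunit genes EIF2S1, EIF2S2 and EIF2S3, the eIF2 alpha kinase genes EIF2AK1, EIF2AK2, EIF2AK3 and EIF2AK4, the phosphatase subunit genes PPP1R15A and PPP1R15B, and the eIF2B subunit gene EIF2B5. They were taken by symbol, with earlier results of these data known, and 10 of 10 passed the filter on low counts that left 16653 genes. The libraries came from tumours of BT-474 cells, per the labels a hormone receptor-positive, HER2-positive breast cancer line of human origin, grown in the mammary fat pad of female athymic nude mice, which lack a thymus and so most T cells but keep other host cells. Every animal, control or treated, carried a slow-release pellet of 0.72 mg estradiol meant to last 90 days, and tumours could enter the study above 95 mm3. There were 6 vehicle tumours (mannitol in water) and 5 tumours of animals given evexomostat at 12 mpk, as the titles write the dose, both injected under the skin every 4 days, with day 33 given for all libraries. Evexomostat (SDX-7320 in the titles, SDX-7230 in another label field) inhibits methionine aminopeptidase 2, the METAP2 protein, which removes the first methionine of many new proteins and is also known to bind eIF2. The comparison asked whether mRNA of the eIF2 system differed between treated and vehicle tumours.

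eIF2 is the GTP-binding complex of an alpha, a beta and a gamma subunit that carries the initiator methionine tRNA to the ribosome. Under stress, kinases phosphorylate the alpha subunit, which then blocks eIF2B, the factor that reloads eIF2 with GTP. General protein synthesis falls and a small set of mRNAs, including that of the transcription factor ATF4, is translated more. Phosphorylation itself is not seen in RNA sequencing, so the values below are mRNA levels only, and in whole tumours fewer cells of a type and less RNA per cell cannot be told apart.

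The libraries held 22808033 to 39249329 counts, and a member had between 455 and 19564 counts in a library. Vehicle replicate 001 stood apart. Its 100 most abundant genes made up 23.9% of the counts (16.2% to 17.9% in each remaining library), and its levels fell with transcript length by 0.21 on the log2 scale per doubling of length, against slopes of -0.052 to 0.062 in the others. The members' fold changes are therefore also given without it. Several markers of the labelled line were low or near absent. ERBB2 ranked 4614 of 28152 symbols at 23.0 to 65.3 RPM (reads scaled to library size), and ESR1 had 1 to 17 counts, PGR 0 to 5 and KRT19 0 to 46. GRB7 had 3 to 18 counts, CDH1 4 to 43, EPCAM 9 to 149, FOXA1 16 to 71 and GATA3 114 to 264. In contrast, the keratin genes KRT8 and KRT18 were at 164 to 537 and 98.65 to 195.7 RPM. Of the host marker lists, skeletal muscle genes summed to 8.34 to 28.3 RPM under vehicle and 10.7 to 582 RPM under evexomostat, with the highest value in evexomostat replicate 005. All 9 tested genes of that list had a log2 fold change above 0, with a median of 3.31 and 0 past the edgeR threshold. The labels number the tumours but do not state that each came from a separate animal, so p-values measure only the spread between these samples.

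No difference between evexomostat and vehicle tumours in the 10 genes passed the test over all 11 libraries. In edgeR's quasi-likelihood test with Benjamini-Hochberg adjustment over all genes, 0 of 10 passed an adjusted p-value of 0.05, beside 0.606% of the 16653 genes tested (0.174% higher and 0.432% lower), and limma-voom also called 0. DESeq2 called 0 of the 9 to which it gave an adjusted p-value, and gave none to EIF2S2. At an unadjusted p under 0.05 there were 0 of 10, beside 13.4% of all genes. Log2 fold changes ran from -0.29 in EIF2AK3 to 0.14 in EIF2B5, with 4 above 0 and 6 below. The median was -0.089, beside -0.039 over all genes tested. The groups overlapped in each of the 10, whereas they did not overlap in 2.97% of all genes. Without vehicle replicate 001, 1 of 10 passed, EIF2S2, which was higher under evexomostat, beside 1.98% of genes called higher, 3.24% called lower and 5.22% called either way in that comparison.

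**Figure D1:**
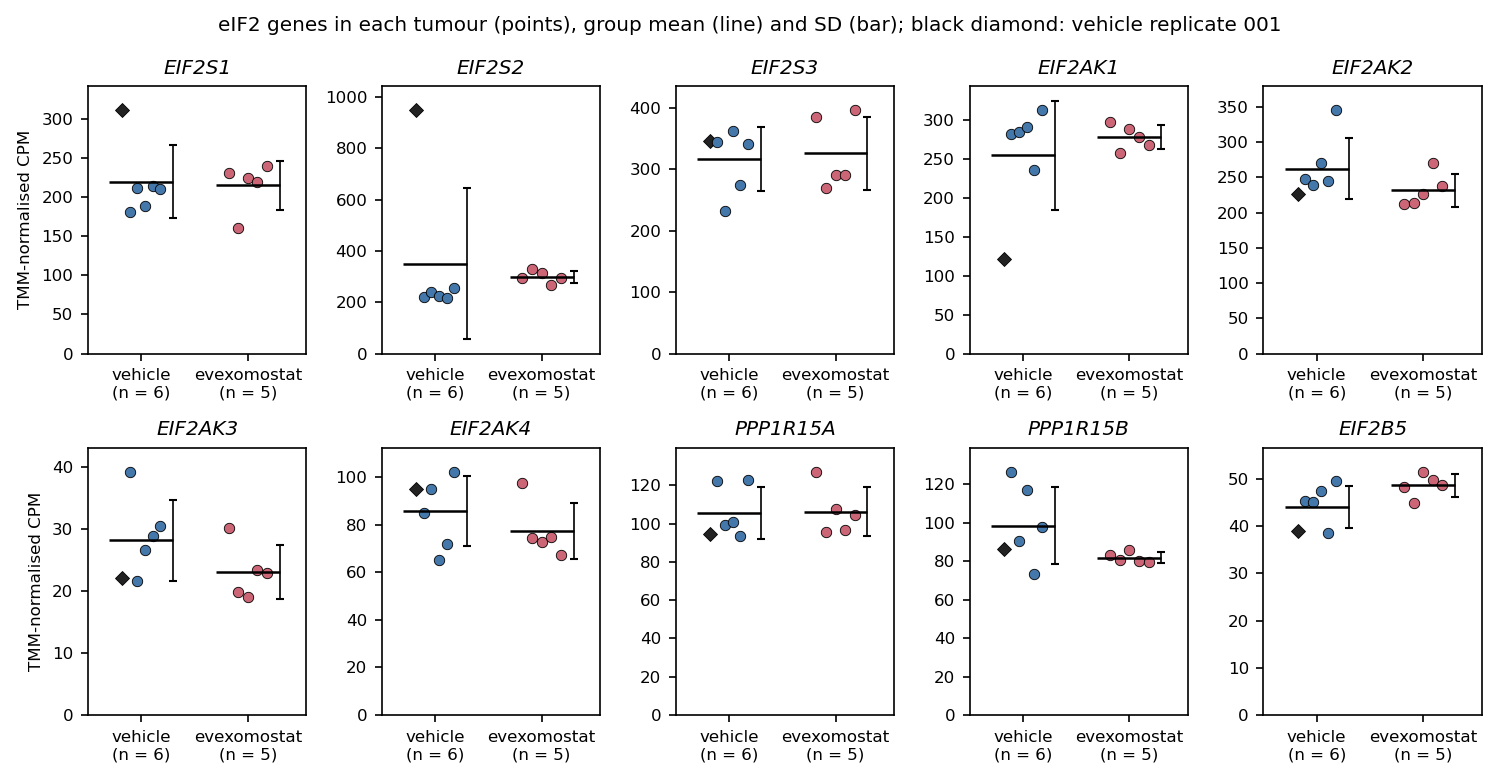
Levels of the 10 genes in each tumour as TMM-normalised CPM (vertical axis, linear from 0), with points for tumours, a line at the group mean and a bar for the SD. The groups overlap in each panel. Vehicle replicate 001 (black diamond) is the highest vehicle tumour for EIF2S1 at 311 CPM and EIF2S2 at 949 CPM. It is the lowest for EIF2AK1 at 121 CPM and EIF2AK2 at 226.5 CPM.

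EIF2S1 encodes the alpha subunit, the one that carries the regulatory phosphorylation. Its level was 182 CPM (counts scaled to library size with TMM factors) in the lowest vehicle tumour, 212 at the median and 311 in the highest. Under evexomostat it was 231, 161, 225, 219 and 240 CPM in replicates 002, 003, 004, 005 and 007. Replicate 003 was below every vehicle tumour and the other 4 evexomostat tumours lay within the vehicle range. That range reached 311 CPM only through vehicle replicate 001. The other 5 vehicle tumours were at 181.5 to 214.5 CPM, below those 4 evexomostat tumours and above replicate 003. The means were 220 ± 46.8 CPM (SD, n = 6) and 215 ± 31.1 (SD, n = 5), and the log2 fold change was -0.031 (SE 0.16, edgeR adjusted p 0.964). Its 95% confidence interval, -0.38 to 0.31, corresponds to 0.77-fold to 1.24-fold. Leaving out vehicle replicate 001 gave 0.10 (edgeR adjusted p 0.622).

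EIF2S3 encodes the gamma subunit, which binds GTP and the initiator tRNA. It was at 232 CPM in the lowest vehicle tumour, 343 at the median and 362 in the highest. Under evexomostat the values were 385, 270, 290, 291 and 396 CPM in the same order of replicates, so that replicates 002 and 007 exceeded every vehicle tumour and the other 3 lay inside the vehicle range. The log2 fold change was 0.042 (SE 0.16, 95% confidence interval -0.30 to 0.39, edgeR adjusted p 0.950), and 0.076 without vehicle replicate 001 (edgeR adjusted p 0.799). EIF2S3B, a near-identical copy, had 74 to 222 counts, 1.08% to 1.98% of those of EIF2S3, and reads could have been split between them.

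EIF2S2 encodes the beta subunit, and its result turned on a single library. Vehicle replicate 001 was at 949 CPM, and the other 5 vehicle tumours were at 218 to 254 CPM. The evexomostat tumours were at 294, 331, 313, 266 and 294 CPM, each above those 5 vehicle tumours and below vehicle replicate 001. Over all 11 libraries the log2 fold change was -0.23 (SE 0.37), with a 95% confidence interval of -1.03 to 0.57 and an edgeR adjusted p of 0.858. Without vehicle replicate 001 the means were 231 ± 15.5 CPM (SD, n = 5) and 300 ± 24.1 (SD, n = 5), and the direction turned to a log2 fold change of 0.38 (SE 0.09, 95% confidence interval 0.18 to 0.57, edgeR adjusted p 0.0346). The groups did not overlap in that comparison, which was also true of 8.33% of all genes.

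Between sets of libraries, the ribosomal protein share had the same order as EIF2S2. Ribosomal protein genes took 7.16% to 8.76% of counts in the evexomostat libraries, 4.89% to 7.11% in the other vehicle libraries and 14.5% in vehicle replicate 001. That order is the order of EIF2S2 in the same 3 sets. It did not hold within the other vehicle libraries. There replicate 007 had the highest EIF2S2 level (254.4 CPM) and the lowest share (4.89%). Replicate 006 had the lowest level (217.5 CPM) and a share of 7.03%. In the evexomostat group replicate 003 was highest (331 CPM, 8.76%) and replicate 005 lowest (266 CPM, 7.16%) in both. The part of the ribosomal protein share in the EIF2S2 result was not tested. With vehicle replicate 001 left out and the trend on transcript length and GC content removed, EIF2S2 was at 0.39 (edgeR adjusted p 0.0431). The call also passed in the other 5 changes of scaling or tool tried without that library, with an adjusted p-value of 0.00132 in DESeq2, 0.0375 in limma-voom and 0.0222 with upper quartile scaling in edgeR. It depended on the remaining tumours. When a second library was also left out, EIF2S2 kept a log2 fold change of 0.33 to 0.41 but passed in 2 of 10 such comparisons, with edgeR adjusted p-values of 0.0393 to 0.0931. Evexomostat replicate 005, the tumour with the muscle signal, had the lowest EIF2S2 level of its group. Leaving it out as well gave 0.41 on the log2 scale (edgeR adjusted p 0.0467). EIF2S2 did not pass on the 8 libraries with replicate numbers found in both groups, which also lack vehicle replicate 001. It was at 0.35 there (edgeR adjusted p 0.0847), and at 0.348 with replicate number as a block (edgeR adjusted p 0.188). Over all 11 libraries, limma-voom with quality weights gave 0.308 (adjusted p 0.172).

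**Figure D2:**
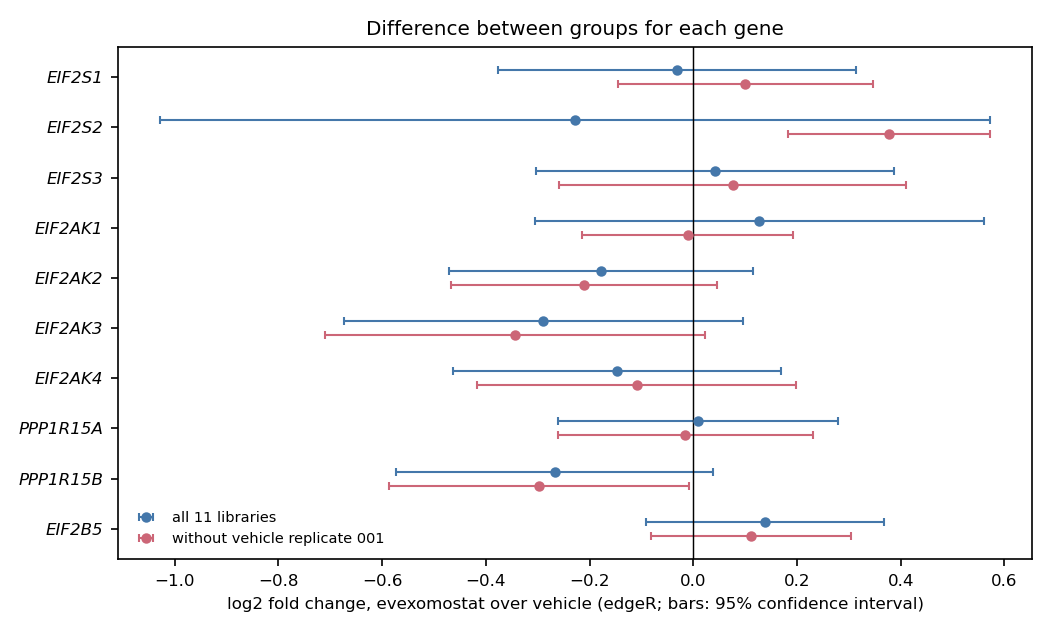
Log2 fold change of each gene, evexomostat over vehicle, from edgeR (horizontal axis) with 95% confidence intervals, for all 11 libraries (blue) and without vehicle replicate 001 (red). The intervals over all libraries include 0 in 10 of 10 genes, and the interval of EIF2S2 moves from -1.03 to 0.57 to 0.18 to 0.57 when that library is left out.

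The kinases phosphorylate eIF2 alpha in response to different stresses. EIF2AK1, known as HRI, responds to heme shortage and to mitochondrial stress. Vehicle replicate 001 had 121 CPM and the other vehicle tumours 236 to 312 CPM. The evexomostat tumours had 298, 258, 288, 278 and 268 CPM, all within the range of those other 5 vehicle tumours. The log2 fold change was 0.13 (SE 0.20, 95% confidence interval -0.31 to 0.56, edgeR adjusted p 0.852). It was -0.011 when vehicle replicate 001 was left out, with an interval of -0.21 to 0.19.

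EIF2AK2, or PKR, binds double-stranded RNA and is itself induced by interferon. Vehicle tumours ranged from 227 CPM through a median of 246 to 345 CPM in replicate 007. Evexomostat tumours were at 212, 213, 227, 270 and 237 CPM, and replicates 002 and 003 lay below every vehicle tumour. The change was -0.18 on the log2 scale (SE 0.14, 95% confidence interval -0.47 to 0.11, edgeR adjusted p 0.639), and -0.21 without vehicle replicate 001 (edgeR adjusted p 0.295).

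EIF2AK3, or PERK, is the kinase of the endoplasmic reticulum membrane that responds to unfolded proteins. Its vehicle values ran from 21.5 CPM through a median of 27.8 to 39.2 CPM. Under evexomostat they were 30.1, 19.8, 19.0, 23.4 and 22.9 CPM, with replicates 003 and 004 below the vehicle range. The means were 28.1 ± 6.49 CPM (SD, n = 6) and 23.0 ± 4.39 (SD, n = 5). This was the lowest fold change of the 10 on the log2 scale, -0.29 (SE 0.18), with a 95% confidence interval of -0.67 to 0.095 and an edgeR adjusted p of 0.532. With vehicle replicate 001 left out it was -0.34 (SE 0.17, edgeR adjusted p 0.233).

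EIF2AK4, or GCN2, senses uncharged tRNA when amino acids run short. Vehicle tumours had 65.0 CPM at the lowest, 90.0 at the median and 102 at the highest. Evexomostat replicate 002 had 97.5 CPM and the other 4 had 67.5 to 74.6 CPM, all inside the vehicle range. The log2 fold change was -0.15 (SE 0.15, 95% confidence interval -0.46 to 0.17, edgeR adjusted p 0.738), and -0.11 without vehicle replicate 001 (edgeR adjusted p 0.672). Strand use in counting is not given in the sources used here. By RefSeq gene extents on GRCh38.p14, EIF2S1 overlaps GPHN, EIF2AK1 overlaps AIMP2 and ANKRD61, EIF2AK2 overlaps GPATCH11, and EIF2AK3 overlaps the non-coding EIF2AK3-AS1 and EIF2AK3-DT, so reads in the overlaps could have been counted with the partner.

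PPP1R15A, known as GADD34, and PPP1R15B, known as CReP, bring protein phosphatase 1 to eIF2 alpha and reverse the phosphorylation. PPP1R15A is the stress-induced form that closes the feedback loop and PPP1R15B the constitutive one. Their RefSeq promoter stretches on GRCh38.p14, read 5′ to 3′ on the strand of the gene, are shown because the genes share this task and differ in these elements. Of the 10 genes, 8 had an entry in the promoter table, and EIF2S2 and EIF2AK1 had none. Capitals mark TGACGTCA (the cyclic AMP response element, CRE), TGATGNAA (a composite of the kind bound by C/EBP and ATF proteins) and CCAAT, searched on both strands in the 250 bases before the start. The PPP1R15A stretch, chr19:48872171-48872381 on the plus strand, ends 40 bases before the RefSeq start, and that of PPP1R15B, chr1:204411818-204412067 on the minus strand, ends at the base before it.
PPP1R15A: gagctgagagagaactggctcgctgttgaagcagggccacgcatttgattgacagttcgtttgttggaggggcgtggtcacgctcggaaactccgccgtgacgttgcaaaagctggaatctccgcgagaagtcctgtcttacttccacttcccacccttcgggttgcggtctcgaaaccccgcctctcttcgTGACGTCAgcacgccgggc
PPP1R15B: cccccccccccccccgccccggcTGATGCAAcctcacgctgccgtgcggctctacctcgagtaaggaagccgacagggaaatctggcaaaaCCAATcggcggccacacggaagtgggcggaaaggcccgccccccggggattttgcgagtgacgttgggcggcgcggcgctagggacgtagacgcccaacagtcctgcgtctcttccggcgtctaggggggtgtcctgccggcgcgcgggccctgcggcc

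The full CRE lies 58 bases before the start of PPP1R15A, and 1.64% of 34788 promoter windows of that length hold one. The composite lies 227 bases before the start of PPP1R15B, and 3.16% of windows hold one. The shorter CRE core TGACG, which the full element contains, occurs in both and in 21.2% of windows. CCAAT occurs in 32.0% of windows, and among the 8 genes in PPP1R15B, EIF2AK2 and EIF2AK3. The interferon-stimulated response element, ISRE, held by 3.02% of windows, was not complete in any of the 8 windows. The windows stop at the base before the start, so an element that crosses or follows the start was not searched. Its absence here, in EIF2AK2 as in the others, therefore does not show that a promoter lacks it. A match describes letters and is not a measured binding site.

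PPP1R15A was at 93.4 CPM in the lowest vehicle tumour, 100.1 at the median and 123 in the highest. The evexomostat values were 127, 95.4, 107, 96.6 and 105 CPM, of which replicate 002 was above the vehicle range. The log2 fold change was 0.0091 (SE 0.13, 95% confidence interval -0.26 to 0.28, edgeR adjusted p 0.988), and -0.015 without vehicle replicate 001 (edgeR adjusted p 0.952). This was the smallest difference of the 10 in size, and the interval corresponds to 0.83-fold to 1.21-fold.

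PPP1R15B was more tightly grouped under evexomostat, a difference in spread that was not tested. Vehicle tumours ran from 73.1 CPM through a median of 94.0 to 127 CPM, a coefficient of variation of 20.2%. The evexomostat tumours were at 83.4, 80.6, 85.8, 80.0 and 79.6 CPM, a coefficient of variation of 3.26%. All 5 lay inside the vehicle range. The log2 fold change was -0.27 (SE 0.14, 95% confidence interval -0.57 to 0.039, edgeR adjusted p 0.448). It was -0.30 in the 10 other libraries, with an unadjusted edgeR p of 0.0453 and an edgeR adjusted p of 0.194. In that comparison 2 of 10 members had an unadjusted p under 0.05, beside 24.4% of all genes.

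EIF2B5 encodes the catalytic subunit of eIF2B. It ran from 38.6 CPM through a median of 45.2 to 49.5 CPM under vehicle and was at 48.2, 44.9, 51.5, 49.7 and 48.8 CPM under evexomostat. Replicates 004 and 005 were just above the highest vehicle tumour. The means were 44.2 ± 4.45 CPM (SD, n = 6) and 48.6 ± 2.44 (SD, n = 5), with a log2 fold change of 0.14 (SE 0.11, 95% confidence interval -0.091 to 0.37, edgeR adjusted p 0.640). The 10 libraries other than vehicle replicate 001 gave 0.11 (edgeR adjusted p 0.471). Its interval, 0.94-fold to 1.29-fold, was the narrowest of the 10.

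METAP2, the target of the drug, was at 84.6 to 104 CPM in vehicle tumours other than replicate 001, which had 215.5 CPM, and at 105.5 to 111 CPM under evexomostat. Like EIF2S2 it stood above those 5 vehicle tumours in each treated tumour, though by a narrow margin. Without vehicle replicate 001 the groups did not overlap in 8.33% of all genes. Over all 11 libraries its log2 fold change was -0.038 (edgeR adjusted p 0.969), and it was 0.26 without vehicle replicate 001 (edgeR adjusted p 0.0772).

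Levels were compared between genes only after division by the length of the longest annotated transcript (GENCODE 29, for which the longest stands in for isoforms that were not resolved). In vehicle tumours EIF2S2 and EIF2S3 were the highest, at 132 ± 110.3 and 111 ± 18.2 CPM per kilobase (SD, n = 6), and their ranges overlapped. The mean of EIF2S2 rested on vehicle replicate 001, at 357 CPM per kilobase. In the other 5 vehicle tumours EIF2S2 was at 87.2 ± 5.84 and EIF2S3 at 109 ± 19.5 (SD, n = 5), so that EIF2S3 came first. Over all 6, EIF2AK1 at 56.9 ± 15.6, EIF2S1 at 49.0 ± 10.4 and PPP1R15A at 44.4 ± 5.68 followed, again with overlapping ranges. EIF2AK2 was at 26.1 ± 4.29, and its lowest tumours reached the range of PPP1R15B. PPP1R15B at 18.8 ± 3.82, EIF2B5 at 16.6 ± 1.67 and EIF2AK4 at 15.6 ± 2.67 did not differ beyond their spread. EIF2AK3 was the lowest at 6.05 ± 1.40 and its highest vehicle tumour, at 8.43, was below the lowest of every other member. Under evexomostat EIF2S3 came before EIF2S2, as in the vehicle tumours other than replicate 001, and EIF2B5 before PPP1R15B. The order depended on the length used. With the median transcript length EIF2AK1 came first, at 325 ± 89.4 CPM per kilobase, and EIF2AK3 was again last, at 6.66 ± 1.54.

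The make-up of each family was compared within libraries, where scaling between libraries plays no part. EIF2AK1 made up 53.5% ± 7.93 (SD, n = 6) of the kinase counts per kilobase in vehicle tumours and 59.6% ± 1.42 (SD, n = 5) in evexomostat tumours, 6.19 percentage points more (two-sided exact permutation p 0.0476, adjusted over the 8 shares tested 0.208). Without vehicle replicate 001, at 37.8%, the difference was 3.06 points (exact permutation p 0.0476, adjusted 0.275). EIF2AK2 made up 25.3% and 22.2%, EIF2AK3 5.86% and 4.73%, and EIF2AK4 15.4% and 13.5%. Leaving out vehicle replicate 001 moved the difference of EIF2AK2 from -3.12 to -1.88 points and that of EIF2AK4 from -1.95 to -0.208 points, and that of EIF2AK3 from -1.13 to -0.976. PPP1R15A made up 70.3% ± 3.19 of the phosphatase subunit pair under vehicle and 73.9% ± 1.90 under evexomostat (exact permutation p 0.0519, adjusted 0.208), a difference of 3.57 points and 3.63 without that library. Among the eIF2 subunits the shares of EIF2S1, EIF2S2 and EIF2S3 were 17.8%, 41.1% and 41.1% under vehicle and 17.4%, 41.3% and 41.3% under evexomostat. The near-equal means rested on vehicle replicate 001, where EIF2S2 made up 65.2%. Without it the vehicle shares were 18.8%, 36.3% and 44.9%, so that EIF2S2 was 4.97 points higher and the difference of EIF2S3 was -3.62 points (exact permutation p 0.103 and 0.230, adjusted 0.275 and 0.307). No share passed after adjustment, and 0.00216 is the smallest exact p that these group sizes allow.

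**Figure D3:**
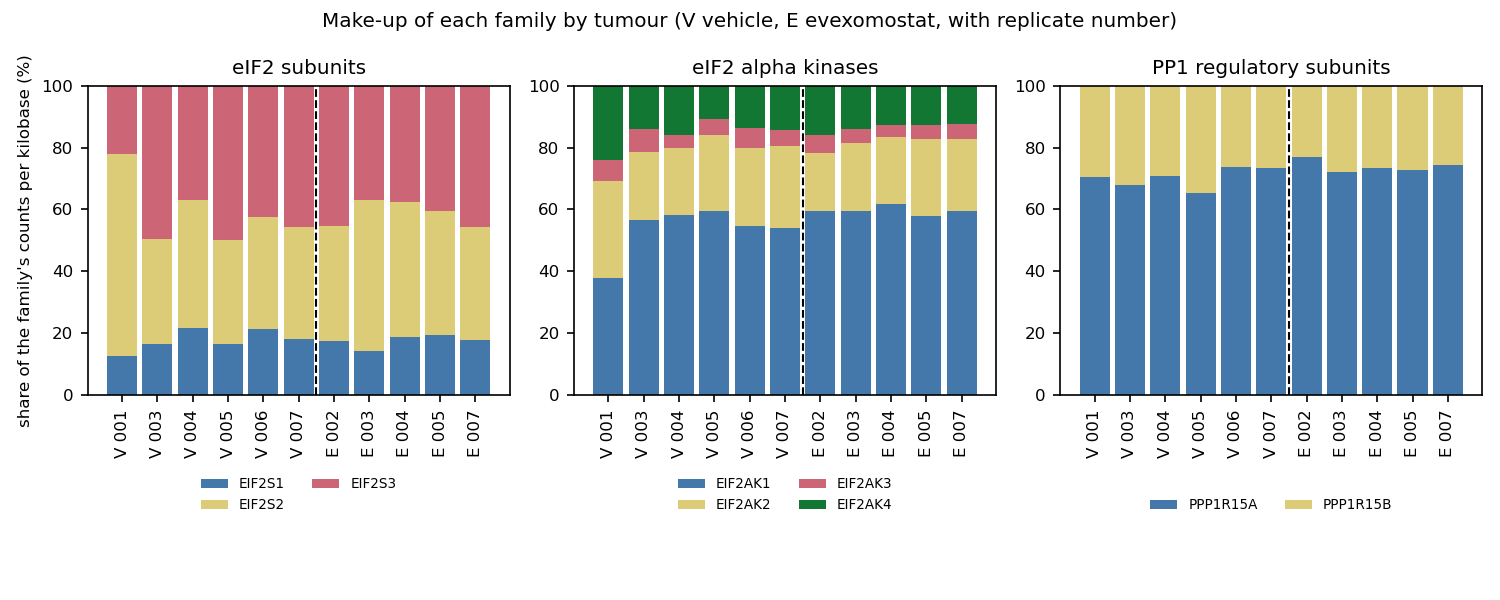
Share of each gene in the summed counts per kilobase of its family (vertical axis, percent) in each tumour, vehicle to the left and evexomostat to the right of the dashed line. In vehicle replicate 001 EIF2S2 makes up 65.2% of the subunits and EIF2AK1 37.8% of the kinases, against 33.5% to 41.3% and 54.0% to 59.4% in the other vehicle tumours.

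Around the 10 genes, 4 further lists of the pathway were read in the same fit, and 0 of their genes passed in edgeR over all 11 libraries. In the order below, 1 of 16, 2 of 15, 7 of 24 and 3 of 21 genes had an unadjusted p under 0.05, beside 13.4% of all genes. The list of eIF2B and eIF2 cycle partners held 16 genes, 5 with a log2 fold change above 0 and a median of -0.027. Its extremes were BZW2 (0.29), an eIF5 mimic, and EIF2D (0.13) at the upper end, and EIF5 (-0.36), the GTPase activator of eIF2, and EIF2B1 (-0.21) at the lower end, with edgeR adjusted p-values of 0.357, 0.709, 0.450 and 0.550. Leaving out vehicle replicate 001, 13 of 16 were above 0 with a median of 0.11, beside -0.00245 over all genes. EIF5B, the factor for subunit joining, was the 1 of 16 that passed, at 0.40 (edgeR adjusted p 0.0459), beside 5.22% of all genes. EIF5B was at 828.6 CPM in vehicle replicate 001 and 214 to 264 CPM in the other vehicle tumours, the same shape as EIF2S2.

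Regulators of the kinases and phosphatases numbered 15, with 6 above 0 and a median of -0.025. OMA1, the mitochondrial protease upstream of EIF2AK1, was at 0.31 and TARBP2, an inhibitor of EIF2AK2, at 0.19. DNAJC3, a co-chaperone that inhibits eIF2 alpha kinases, was at -0.39 and ERN1, the IRE1 sensor of unfolded proteins, at -0.33. Their edgeR adjusted p-values were 0.382, 0.506, 0.300 and 0.375, and without vehicle replicate 001 0 of 15 passed in edgeR, beside 5.22% of all genes, and 5 of 15 had an unadjusted p under 0.05, beside 24.4%.

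Targets of the integrated stress response, the program downstream of phosphorylated eIF2, numbered 24. Of these 16 were above 0, with a median of 0.11 beside -0.039 over all genes, and SESN2 and PHGDH were the 2 whose groups did not overlap, beside 2.97% of all genes. CHAC1, a glutathione-degrading enzyme, was at 1.01 (SE 0.26, edgeR adjusted p 0.0992) and ASNS, asparagine synthetase, at 0.82 (edgeR adjusted p 0.209). DDIT4, an inhibitor of mTOR signalling, was at -0.83 and the transcription factor gene CEBPB at -0.53, with edgeR adjusted p-values of 0.466 and 0.428. In the fit that left out vehicle replicate 001 the median was 0.29, beside -0.00245 over all genes, and 3 of 24 passed, beside 5.22% of all genes (1.98% higher). All 3 were higher and are named here after their values were seen: CHAC1 at 1.22 (edgeR adjusted p 0.0119), PHGDH, the first enzyme of serine synthesis, at 0.80 (0.0300), and CEBPG at 0.45 (0.0478). ATF4 mRNA was then at 0.37 (edgeR adjusted p 0.0533). At an unadjusted edgeR p under 0.05 that fit had 9 of 24 of these targets, beside 24.4% of all genes. The cycle partners had 3 of 16 and the interferon-induced genes 3 of 21.

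Interferon-induced genes, read because EIF2AK2 is one of this class, numbered 21. Of these 2 were above 0, with a median of -0.27, but without vehicle replicate 001, which had the highest summed level at 9012 RPM, 8 of 21 were above 0 and the median was -0.21. CMPK2 (-0.89) and RSAD2 (-0.84) were the lowest, with edgeR adjusted p-values of 0.0851 and 0.142, and IRF9 (0.16) and IRF7 (0.058) the highest. Without that library CMPK2 fell by 0.79 on the log2 scale (edgeR adjusted p 0.0453) and was the 1 of 21 that passed, beside 5.22% of all genes (3.24% lower).

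**Figure D4:**
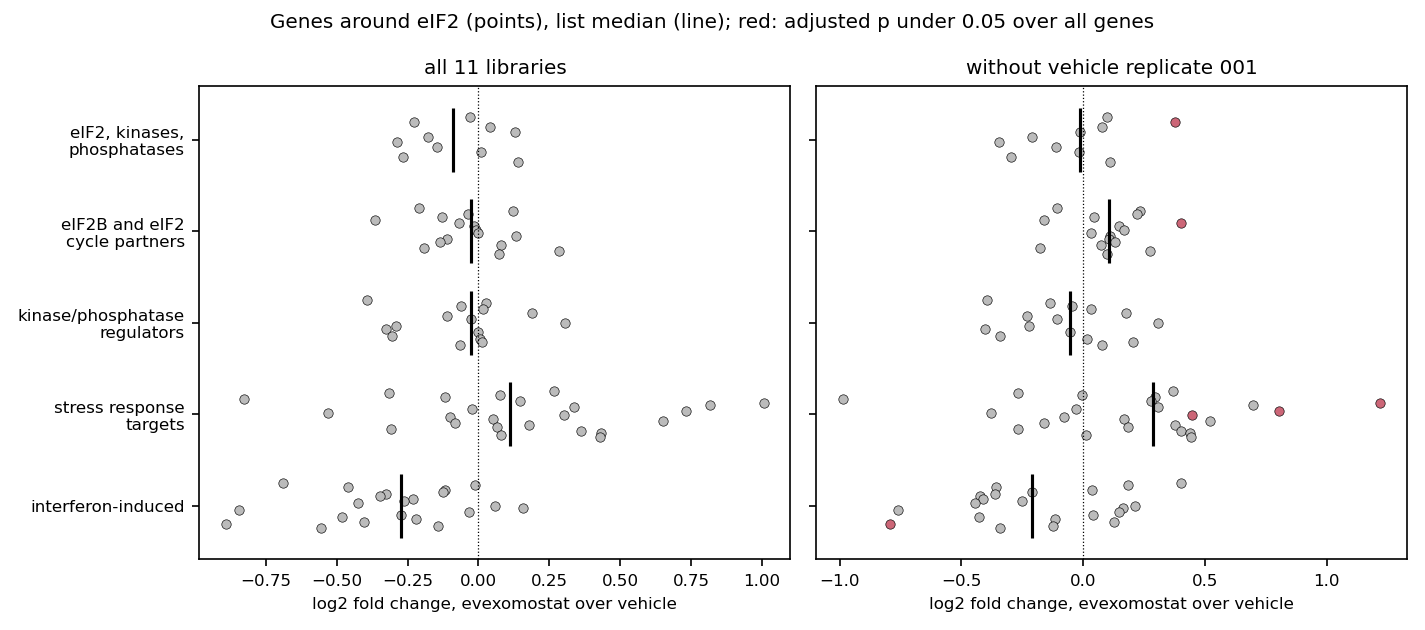
Log2 fold change of each tested gene (points) in the 10 eIF2 genes and 4 further lists, evexomostat over vehicle, with the list median as a line, over all 11 libraries (left) and without vehicle replicate 001 (right). Red points have an adjusted p-value under 0.05 over all genes: 0 on the left, and on the right EIF2S2, EIF5B, CHAC1, PHGDH, CEBPG and CMPK2.

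Vehicle replicate 001 did not move the 10 genes together. Against the mean of the other 5 vehicle tumours it was 4.10-fold higher for EIF2S2, which placed the gene at percentile 98.9 of all tested genes by that ratio, and 1.54-fold higher for EIF2S1, at percentile 79.0. EIF2AK1 was 2.32-fold lower, at percentile 12.5. EIF2S3, EIF2AK2, EIF2AK4, PPP1R15A, PPP1R15B and EIF2B5 were within 0.25 on the log2 scale of the other vehicle tumours, and EIF2AK3 was at -0.41. With the length and GC trend removed, the log2 ratio was 1.86 for EIF2S2 in place of 2.03 and -0.95 for EIF2AK1 in place of -1.22, so both kept their direction. For EIF2AK4 it moved from 0.18 to 0.57.

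**Figure D5:**
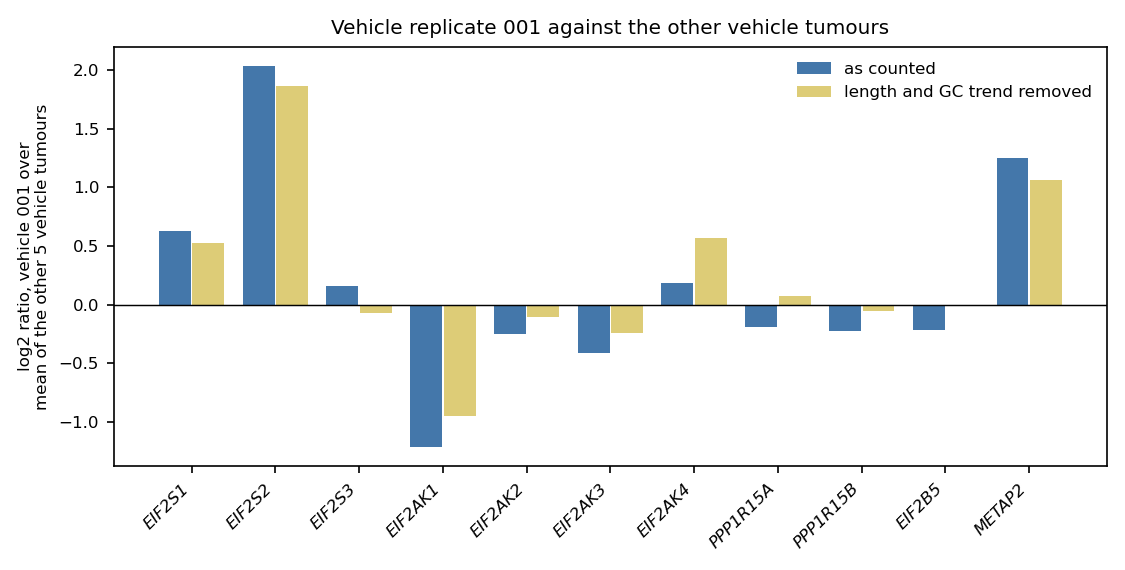
Log2 ratio of vehicle replicate 001 over the mean of the other 5 vehicle tumours (vertical axis) for the 10 genes and METAP2, as counted (blue) and with the transcript length and GC trend removed (yellow). EIF2S2 and METAP2 are the highest and EIF2AK1 the lowest under both.

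How the genes varied together also depended on that library. Across the 11 libraries EIF2S2 and EIF2AK1 had a Pearson correlation of log2 CPM of -0.891, and across the 10 without vehicle replicate 001 it was 0.074. EIF2AK1 and EIF2B5 had 0.730 with it and 0.766 without it. Correlations over so few libraries, which share depth and library preparation, are given as descriptions. The tested genes most like EIF2S2 were SNRPD2, PSMB3 and DMAC1, at 0.996, 0.992 and 0.991 (0.966, 0.930 and 0.927 without vehicle replicate 001). Those most like EIF2S1 were DNAJA1, DCTPP1 and CLP1, at 0.969, 0.956 and 0.940. EIF2S3 was followed by CHPT1, MOSPD1 and KLHL15 at 0.919 to 0.881. Among the kinases EIF2AK1 was followed by SBF1, STRN4 and TNRC18 at 0.984 to 0.982, which fell to 0.792 to 0.825 without that library, and EIF2AK3 by KMT2C, MED13L and BACH1 at 0.952 to 0.934. EIF2AK2 was followed by LAMP1, CHN1 and CAT at 0.916 to 0.906, and EIF2AK4 by CUL2, KLHL28 and SPATA5L1 at 0.902 to 0.883. PPP1R15A was followed by MPI, RANBP2 and KNSTRN at 0.907 to 0.883, PPP1R15B by PIK3AP1, DUSP4 and ASPM at 0.929 to 0.897, and EIF2B5 by KIF18B, YARS1 and ZSWIM9 at 0.937 to 0.905.

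The authors' deposited table, made from the same libraries, also lists no member near its threshold. Its log2 fold changes run from -0.20 for EIF2AK3 to 0.23 for EIF2B5, and its smallest adjusted p-value among the 10 is 0.919, for EIF2B5. EIF2S1, at 0.072 in the authors' deposited table, has the opposite sign there to the edgeR value above.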

How the data were processed

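RNA of 11 tumours was sequenced as paired-end reads, per the labels' protocols. The submitters' processing notes name bcl2fastq 2.17, STAR 2.7.5c, featureCounts, Subread and edgeR with the builds GRCh37 and hg19, without roles. The annotation, the use of strand and how reads of mouse origin were treated are not given in the sources used here. The deposited count table holds whole-number counts per gene symbol, and the deposited RPM table holds RPM, the same counts scaled to library size. The authors' deposited comparison table gives log2 fold changes, p-values and adjusted p-values, and the test behind it is not stated.

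Counts were filtered with filterByExpr (minimum count 10, minimum total 15), scaled by TMM and compared with edgeR 4.0.16 (R 4.3.3) quasi-likelihood tests, Benjamini-Hochberg adjusted over 16653 genes. Standard errors and intervals follow from the F statistic. Alternatives used DESeq2 1.42.0, limma 3.58.1 and other scalings, filters and library sets. The fits were tested on simulated data and the permutation test on a known answer. Transcript lengths and GC content came from GENCODE 29 by symbol, for 15910 genes (95.5%). Shares were tested by exact two-sided permutation over 462 splits (252 without vehicle replicate 001).

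Columns were matched to samples by the code in the sample description. The smallest chi-square per degree of freedom between 2 libraries was 16.4, so none was a duplicate. The members and lists were chosen with earlier results of these data known. Named genes were the 10 members, METAP2, the genes of each list past the threshold, its 2 largest and 2 smallest fold changes, and for each member the 3 genes of mean log2 CPM of at least 1 with the highest correlation. Host lists (muscle, fat, fibroblast, endothelium, blood cells) and markers of the labelled line had 0 genes past the threshold with and without vehicle replicate 001 in edgeR, where over all 11 libraries 7 of 9 tested muscle genes and 0 of the others had an unadjusted p under 0.05.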

Additional observations from a re-analysis of the deposited data

Results flagged for a closer look

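Among 36 sets of values checked for a tumour separated from the others by a wide gap, 7 had one, where chance gives about 1.8 (1 in 20). Vehicle replicate 001 accounts for 4 of them. It was the highest of the vehicle tumours for EIF2S1 at 311 CPM, where the next was at 215, and for EIF2S2 at 949 CPM, where the next was at 254. It also had the highest EIF2S2 share of the eIF2 subunits, 65.2% with 41.3% next, and the lowest EIF2AK1 share of the kinases, 37.8% with 54.0% next. The remaining 3 fell in other tumours. EIF2S1 was lowest in evexomostat replicate 003 at 161 CPM, with 219 next. EIF2AK2 was highest in vehicle replicate 007 at 345 CPM, with 270.4 next. EIF2AK4 was highest in evexomostat replicate 002 at 97.5 CPM, with 74.6 next.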

How the results depend on the processing

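The correction for length and GC content, and the settings that combine leaving out vehicle replicate 001 with another change, were added after seeing these data. The number of members past the threshold was 0 in 22 of 23 alternatives and 1 without vehicle replicate 001 (0 to 1 over the fits without 1 library). EIF2AK2, EIF2AK3, EIF2AK4, PPP1R15B and EIF2B5 kept their direction in all 23. The cause of the changes below was not tested.

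Over all genes, 101 passed (29 higher, 72 lower). DESeq2 called 649 (200 higher, 449 lower) and limma-voom with quality weights 1059 (384 higher, 675 lower). The lower calls were 42 with upper quartile scaling, 31 on log2(RPM + 1) and 30 on log2(RPM + 0.1). Without 1 library the total ran from 1 to 865, higher calls from 1 to 328 and lower calls from 0 to 537. The 0 was without evexomostat replicate 005, where edgeR had 1833 genes at an unadjusted p under 0.05. Without evexomostat replicates 002 and 007 the totals were 2 and 3.

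Directions reversed as follows on the log2 scale. EIF2S1 was at 0.00619 with upper quartile scaling, 0.141 with quality weights, 0.0748 and 0.0751 on the RPM scales and 0.0588 with the length and GC correction. EIF2S2 was at 0.0117 in limma-voom, 0.308 with quality weights and 0.127 on both RPM scales. PPP1R15A was at -0.0808 with the length and GC correction. METAP2 was at 0.052 in limma-voom, 0.238 with quality weights, 0.149 and 0.15 on the RPM scales and 0.0548 with the correction. The RPM scales moved the median of all genes from -0.0388 to 0.0754 and 0.0978. Without 1 library, EIF2S1 ran from -0.0805 to 0.1, EIF2S2 from -0.334 to 0.378, EIF2S3 from -0.0368 to 0.104, EIF2AK1 from -0.0111 to 0.194, PPP1R15A from -0.0638 to 0.0572 and METAP2 from -0.106 to 0.264. In percentage points the shares ran from -1.35 to 0.508 for EIF2S1, -1.74 to 4.97 for EIF2S2 and -3.62 to 1.93 for EIF2S3, and with the median transcript length EIF2S2 was at -0.256. EIF2S2 without vehicle replicate 001 ran from 0.328 to 0.412 when a second library was left out.

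Replicate numbers 003, 004, 005 and 007 occur in both groups. Their deviations correlated at -0.272, 0.0664, 0.0489 and -0.0998, which gives no pairing of tumours by number. A fit with the replicate block on those 8 libraries called 107 genes (24 higher, 83 lower), and the same 8 unblocked called 733 (225 higher, 508 lower), with 0 members in both. In each, 3 of 10 members had an unadjusted p under 0.05 in edgeR, beside 20.1% and 24.5% of all genes. With and without the block, EIF2S1 was at 0.0719 and 0.0844, EIF2S2 at 0.348 and 0.35, EIF2S3 at -0.0401 and -0.0443, EIF2AK1 at -0.105 in both, PPP1R15A at -0.142 and -0.147, and METAP2 at 0.228 and 0.224.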
